A study of Homo sapiens with 14 samples.

Results

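The 10 genes followed here belong to the endoplasmic reticulum (ER) folding machinery and were measured across the 6 groups of an RNA-seq study of HT-29 cells: HSPA5, HSP90B1, DNAJB9, DNAJC3, PDIA4, PDIA6, CALR, CANX, XBP1 and HERPUD1. They were taken by gene name from the table of gene counts, which holds 36555 gene rows, and each name matched 1 row. All 10 passed the filter on low counts and are among the 22179 genes tested. Their lowest library count was 917 (DNAJB9) and their highest 94028 (HSPA5), so none was near the limit of detection.

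The ER lumen is where secreted and membrane proteins fold. Unfolded protein is sensed by IRE1, PERK and ATF6, which together drive the unfolded protein response: IRE1 splices the mRNA of the transcription factor XBP1, ATF6 is cleaved into an active factor, and PERK slows translation and raises ATF4. XBP1 and ATF6 are textbook activators of the chaperone genes, and intestinal secretory cells depend on this pathway for mucus and antimicrobial proteins.

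HT-29 is a human colorectal carcinoma cell line, here labelled wild type. The groups, as labelled, were TNF with 20 µM liproxstatin-1 (2 libraries), TNF with 20 µM ferrostatin-1 (3 libraries), TNF alone (2 libraries), 20 µM liproxstatin-1 alone (2 libraries), 20 µM ferrostatin-1 alone (2 libraries) and control medium with 0.1% DMSO (3 libraries). Recombinant human TNF was given at the labelled 100 µg/ml for 72 h to induce apoptosis, and both compounds were present for 72 h. The unit of the TNF dose may be a slip for ng/ml in the labels, and nothing else in the sources used here settles it. Ferrostatin-1 and liproxstatin-1 trap lipid radicals and are used as inhibitors of ferroptosis. The labels name DMSO for the control cells only, and a time for the treated cells only. As labelled, a difference from control therefore cannot be told apart from one of DMSO or culture time. The study set out to learn why the compounds act differently during TNF-induced death. Its design text calls the replicates technical, so p-values measure only the spread between these libraries of 1 cell line. In a bulk culture, fewer cells of a type and less RNA per cell cannot be told apart.

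The promoter sequences come first because they show an element that part of this group of genes holds. The ER stress response element (ERSE) is the site through which ATF6, with NF-Y, and XBP1 act, and ERSE-II is its shorter relative. The letters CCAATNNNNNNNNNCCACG (ERSE) and TGACGTGG (the core of the XBP1 element UPRE), and the ERSE-II consensus, were searched on both strands in the 250 bases upstream of each RefSeq gene start (GRCh38.p14). ERSE was found in 26 of 35116 windows (0.074%), which belong to 25 of 27305 genes (0.0916%). Among the 10 genes, 6 held it: HSPA5, HSP90B1, PDIA6, CALR, CANX and XBP1. The 10 genes were grouped by function, and ATF6 and XBP1 are textbook activators of chaperone genes, so this count is only a description. HERPUD1 held ERSE-II, which was found in 18 windows (0.0513%). The UPRE core was found in 215 windows (0.612%) and in none of the 10 genes' windows, and no elements overlapped each other. DNAJB9, DNAJC3 and PDIA4 held none of these exact letters, which says only that the letters are not in these windows. The upstream stretches of HSPA5, HERPUD1, XBP1 and CALR are shown, because these genes stand for the patterns in the results, 5′ to 3′ on the gene's strand, from RefSeq, with the element in capitals. Each stretch ends before the most upstream of the RefSeq, deposited and GENCODE v29 gene starts. The element of CALR is the reverse complement of ERSE, and the others read as written.
HSPA5, chr9:125241344-125241593, minus strand: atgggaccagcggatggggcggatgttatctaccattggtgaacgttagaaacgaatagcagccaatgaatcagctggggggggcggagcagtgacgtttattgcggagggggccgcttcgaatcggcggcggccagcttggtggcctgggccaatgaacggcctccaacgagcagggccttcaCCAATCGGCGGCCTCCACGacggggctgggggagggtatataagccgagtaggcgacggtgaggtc
HERPUD1, chr16:56931892-56932047, plus strand: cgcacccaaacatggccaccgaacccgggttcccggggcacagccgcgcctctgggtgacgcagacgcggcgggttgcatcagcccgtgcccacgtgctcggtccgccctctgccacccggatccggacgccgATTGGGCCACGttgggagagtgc
XBP1, chr22:28800598-28800819, minus strand: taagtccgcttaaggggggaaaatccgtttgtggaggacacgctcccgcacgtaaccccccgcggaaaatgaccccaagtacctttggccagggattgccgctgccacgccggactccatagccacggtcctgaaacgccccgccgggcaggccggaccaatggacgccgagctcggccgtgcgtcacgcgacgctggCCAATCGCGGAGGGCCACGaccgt
CALR, chr19:12938359-12938577, plus strand: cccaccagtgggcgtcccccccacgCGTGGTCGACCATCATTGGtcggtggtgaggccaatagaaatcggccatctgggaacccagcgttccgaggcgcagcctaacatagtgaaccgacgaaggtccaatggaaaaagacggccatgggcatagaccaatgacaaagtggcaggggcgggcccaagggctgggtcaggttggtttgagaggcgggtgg

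The remaining elements are shown alone, because the deposited table starts HSP90B1, PDIA6 and CANX further upstream, so that these elements lie inside its gene spans. HSP90B1 held a pair of them, the second as the reverse complement.
HSP90B1, chr12:103930216-103930234, plus strand: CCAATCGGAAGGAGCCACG
HSP90B1, chr12:103930321-103930339, plus strand: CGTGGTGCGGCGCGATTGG
PDIA6, chr2:10812853-10812871, minus strand: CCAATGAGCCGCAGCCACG
CANX, chr5:179698778-179698796, plus strand: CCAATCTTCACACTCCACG

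XBP1 has a further feature that bears on what its counts can show. IRE1 removes 26 bases from its mRNA, and the frame shift makes the active factor. Of the 7 XBP1 transcripts in GENCODE v29, 4 contain the segment and 2 lack it. It is shown from XBP1-201 in capitals, in 1 of 7 equal placements of the same 26 bases, with 15 bases on each side. The deposited values are sums per gene, so they do not separate the spliced from the unspliced form.
XBP1 segment, chromosome 22, minus strand: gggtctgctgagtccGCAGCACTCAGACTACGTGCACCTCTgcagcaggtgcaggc

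The libraries held 59913850 to 75838597 counts. Levels are given as normalized CPM, counts scaled to the size of each library, which compare a gene between libraries. All 8 epithelial markers listed were present (EPCAM, CDH1, KRT8, KRT18, KRT20, VIL1, CDX2 and CEACAM5), and their summed level was 8716 to 12963 CPM over all libraries. The 4 leukocyte markers in the table summed to 28.5 to 34.0 CPM in the libraries with TNF and to 10.6 to 12.9 CPM in those without. ITGAM alone carried that difference, at 17.0 to 23.2 CPM with TNF and 0.21 to 0.55 CPM without, while PTPRC, which all leukocytes carry, was at 0 in all libraries but 1 control, at 0.06 CPM; CD3E was not analysed here. The 4 fibroblast markers summed to 20.1 and 34.1 CPM in TNF cells and to 3.27 to 11.3 CPM in control cells. With TNF and a compound they summed to 4.45 and 11.6 CPM (liproxstatin-1) and to 2.25 to 3.93 CPM (ferrostatin-1). With a compound alone they summed to 2.43 and 10.5 CPM (liproxstatin-1) and to 7.28 and 13.2 CPM (ferrostatin-1). The 3 endothelial markers summed to 0.846 to 44.3 CPM over all libraries. KRT81 is a hair keratin whose level separates libraries within some groups. It also separates TNF with either compound from TNF and control, and liproxstatin-1 alone from control. It stood at 13.5 and 1.85 CPM with TNF and liproxstatin-1, 1.47 to 1.79 CPM with TNF and ferrostatin-1, and 43.7 and 50.4 CPM with TNF. Its level was 1.05 and 14 CPM with liproxstatin-1, 57.0 and 1.45 CPM with ferrostatin-1, and 47.6 to 48.4 CPM in controls. The part of these markers in the results was not tested, apart from a fit with KRT81 as a covariate. Between TNF with ferrostatin-1 and TNF that fit cannot separate KRT81 from the compound, since KRT81 was low in every library of the first and high in both of the second. KRT81 was also lower in both libraries of TNF with liproxstatin-1 than in either TNF library. The same holds for liproxstatin-1 alone against every control, so the fit cannot cleanly separate KRT81 from liproxstatin-1 there either. The TNF libraries, whose columns are numbered 1 and 3, differed from each other more than the libraries of any other group did: the chi-square per degree of freedom over genes was 226 between them and 16.1 to 82.5 within the other groups. Where leaving out 1 of them ended or made a call of the 10 genes in TNF against control, or ended one of another gene named, the value without it is given.

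**Figure D1:**
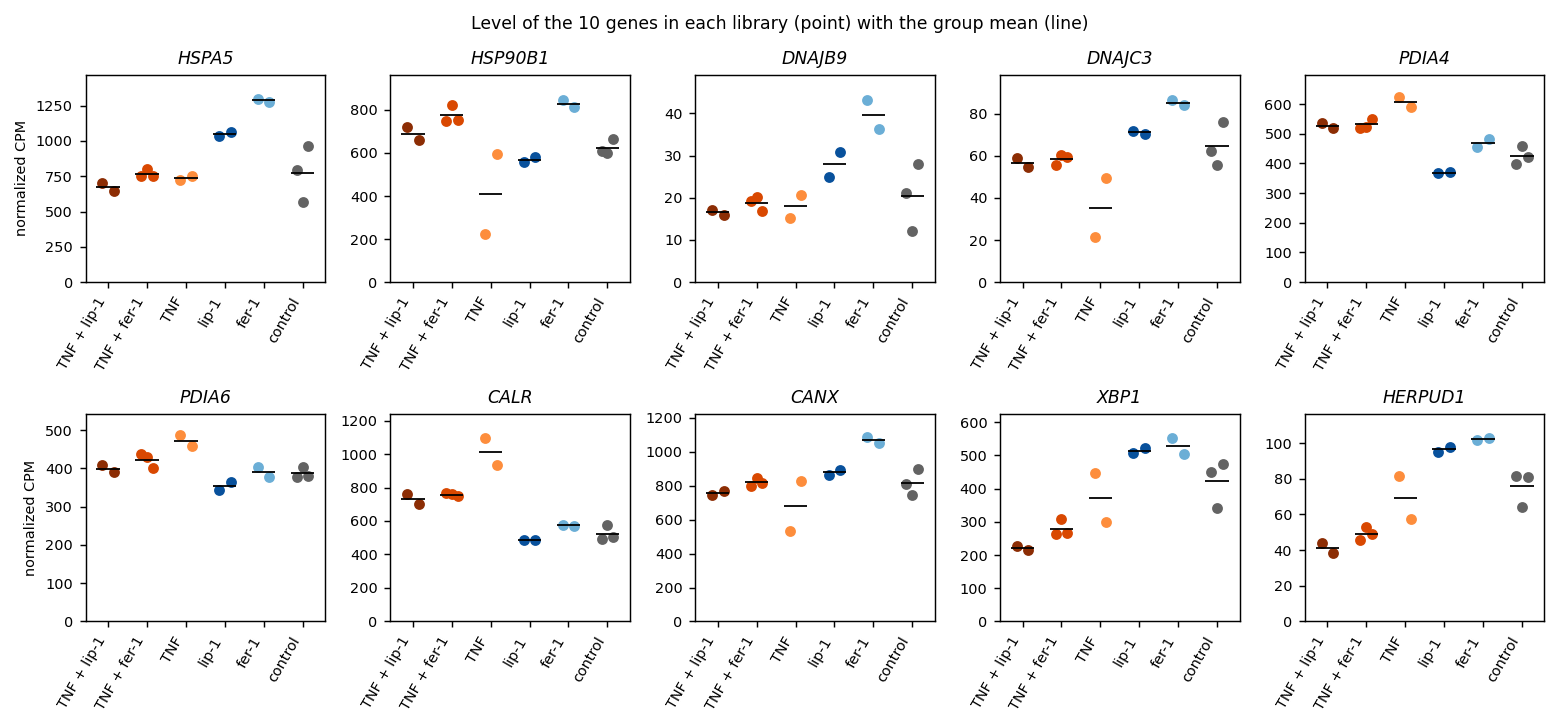
Normalized CPM of the 10 genes (vertical axes, each starting at 0) in the 14 libraries, 1 panel per gene; points are libraries, lines are group means, and the horizontal axis gives the group (lip-1, liproxstatin-1; fer-1, ferrostatin-1). CALR and PDIA4 stand higher in every TNF-treated library than in any library without TNF, whereas the libraries with TNF and a compound hold the least HERPUD1 of all and less XBP1 than any library without TNF.

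To compare the genes with one another, levels per transcript length were read from the deposited FPKM of the 8 libraries whose FPKM columns could be matched to a sample: TNF with liproxstatin-1, TNF with ferrostatin-1 and control. CALR was the highest of the 10 in 6 of these libraries, with 209 to 285 FPKM there, and HSPA5 in the other 2, both controls, with 189.9 and 227 FPKM. HSP90B1, PDIA4, PDIA6, CANX and XBP1 formed a middle tier, with medians of 96.5 FPKM (XBP1) to 159 FPKM (PDIA4) over the 8 libraries. DNAJC3, HERPUD1 and DNAJB9 were far lower, with medians of 10.5, 10.2 and 7.19 FPKM. CALR averaged 270.3 ± 17.1 FPKM with TNF and liproxstatin-1, 283 ± 1.95 FPKM with TNF and ferrostatin-1 and 184 ± 21.9 FPKM in controls (SD, n = 2, 3 and 3). HSPA5 averaged 172 ± 10.1 FPKM, 198 ± 6.99 FPKM and 186 ± 42.9 FPKM in the same groups, so that CALR led with TNF and a compound, and the pair did not differ beyond their spread in controls.

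HSPA5 (BiP; chr9:125234853-125241343 in the deposited table, minus strand) is the Hsp70 chaperone of the ER lumen, and it also holds the stress sensors inactive. It stood at 699 and 645 CPM with TNF and liproxstatin-1, and at 752, 799.6 and 749 CPM with TNF and ferrostatin-1. TNF libraries held 720.0 and 751 CPM. Without TNF, it stood at 1031 and 1059 CPM with liproxstatin-1, 1299 and 1272 CPM with ferrostatin-1, and 791, 565 and 962 CPM in controls. The ferrostatin-1 libraries were the highest of the study and the liproxstatin-1 libraries the next, both above every control, and every library with TNF lay within the wide range of the controls. Among ferrostatin-1-treated cells HSPA5 fell by 0.75 ± 0.16 with TNF on the log2 scale (log2 change ± SE; adjusted p = 0.00639, edgeR's quasi-likelihood test with Benjamini-Hochberg adjustment over all genes tested). Among liproxstatin-1-treated cells it fell by 0.64 ± 0.17 (adjusted p = 0.0298, same test), a call that was lost when any 1 of the 4 libraries was left out. In cells without a compound the TNF difference was -0.07 ± 0.16 (adjusted p = 0.819), and its libraries overlapped.

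HSP90B1 (GRP94; chr12:103930107-103947927, plus strand), the ER Hsp90, folds integrins and Toll-like receptors. It had 719.7 and 658 CPM with TNF and liproxstatin-1, 747, 824 and 753 CPM with TNF and ferrostatin-1, and 226 and 594 CPM with TNF. It had 558 and 579 CPM with liproxstatin-1, 846 and 812 CPM with ferrostatin-1, and 610.2, 598 and 664 CPM in controls. TNF library 1 was far below all other libraries, while TNF library 3 sat just under the controls. The TNF difference was -0.61 ± 0.27 against control and was not called (adjusted p = 0.159). It was -1.47 without TNF library 3 (adjusted p = 2.8e-07) and -0.07 without TNF library 1 (adjusted p = 0.744, edgeR's quasi-likelihood test in each case). HSP90B1 overlaps the antisense gene C12orf73, whose mean level was 10.2 CPM; how the counting treated strand was not given in the sources used here.

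DNAJB9 and DNAJC3 are J-domain partners that hand substrates to HSPA5 and stimulate its ATPase. DNAJB9 (ERdj4; chr7:108569867-108574850, plus strand) had 17.1 and 15.9 CPM with TNF and liproxstatin-1, 19.2, 20.2 and 16.8 CPM with TNF and ferrostatin-1, and 15.1 and 20.7 CPM with TNF. It had 24.9 and 30.9 CPM with liproxstatin-1, 43.2 and 36.3 CPM with ferrostatin-1, and 21.0, 12.2 and 28.0 CPM in controls. Its order of libraries was close to that of HSPA5: ferrostatin-1 highest, the controls spread widely, and the TNF-treated libraries inside the range of the controls. DNAJB9 fell by 1.08 ± 0.27 on the log2 scale with TNF among ferrostatin-1-treated cells (adjusted p = 0.0145). That call was lost with KRT81 as a covariate (-0.94), without ferrostatin-1 library 1 (-0.95) and without library 3 of TNF with ferrostatin-1 (-1.01). Among liproxstatin-1-treated cells the TNF difference was -0.76 ± 0.30 (adjusted p = 0.117).

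DNAJC3 (p58IPK; chr13:95677139-95794988, plus strand), which also inhibits the kinase PERK, had 58.8 and 54.7 CPM with TNF and liproxstatin-1, 55.7, 60.5 and 59.3 CPM with TNF and ferrostatin-1, and 21.5 and 49.3 CPM with TNF. It had 71.8 and 70.5 CPM with liproxstatin-1, 86.4 and 84.0 CPM with ferrostatin-1, and 62.2, 55.7 and 75.9 CPM in controls. Both TNF libraries were below every other library, and library 1 held less than library 3 by a ratio of 0.435. DNAJC3 fell by 0.87 ± 0.26 on the log2 scale with TNF against control (adjusted p = 0.0425), by 1.59 without TNF library 3 (adjusted p = 3.8e-06) and by 0.39 without TNF library 1, where the call was lost (adjusted p = 0.100). It was also lost without control 1 (-0.89) or control 3 (-0.74), and with KRT81 as a covariate (-0.87; adjusted p = 0.0590). Under the compounds the TNF differences were not called: -0.54 ± 0.25 with ferrostatin-1 (adjusted p = 0.163) and -0.33 ± 0.27 with liproxstatin-1 (adjusted p = 0.503).

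The oxidoreductases PDIA4 and PDIA6, which form and rearrange disulfide bonds, went the other way. PDIA4 (ERp72; chr7:149003062-149028662, minus strand) had 535 and 521 CPM with TNF and liproxstatin-1, 520.0, 524 and 550.0 CPM with TNF and ferrostatin-1, and 623 and 590.1 CPM with TNF. It had 369 CPM in both liproxstatin-1 libraries, 454 and 482 CPM with ferrostatin-1, and 399, 458 and 421 CPM in controls. The TNF libraries were the highest, and no library with TNF overlapped any library without it. PDIA4 rose by 0.51 ± 0.08 with TNF against control (adjusted p = 0.00103) and by 0.51 ± 0.08 with TNF among liproxstatin-1-treated cells (adjusted p = 0.00213). Among ferrostatin-1-treated cells the difference was 0.18 ± 0.08 and was not called (adjusted p = 0.127).

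PDIA6 (P5; chr2:10783391-10837977, minus strand), which also limits signalling by IRE1, varied least of the 10: its highest library held 1.42 times its lowest. It had 408 and 389 CPM with TNF and liproxstatin-1, 437, 430.3 and 400.1 CPM with TNF and ferrostatin-1, and 486 and 458 CPM with TNF. It had 342 and 364 CPM with liproxstatin-1, 403 and 377 CPM with ferrostatin-1, and 378, 402 and 379 CPM in controls. The TNF libraries stood above all controls and the liproxstatin-1 libraries below them. PDIA6 rose by 0.29 ± 0.08 with TNF against control (adjusted p = 0.0261), a call that was lost without TNF library 1 (0.24), control 1 (0.27) or control 3 (0.27). It was also lost by limma voom with quality weights (0.31, adjusted p = 0.196), with no filter on low counts (0.28) and with only the groups compared (0.28). The differences were 0.12 ± 0.08 among ferrostatin-1-treated cells (adjusted p = 0.350) and 0.17 ± 0.08 among liproxstatin-1-treated cells (adjusted p = 0.200), neither of them called.

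CALR and CANX are the lectins of the ER, calreticulin soluble and calnexin in the membrane; both hold glycoproteins while they fold, and calreticulin is also part of the complex that loads peptide on MHC class I. CALR (chr19:12938578-12944489, plus strand) had 763 and 699 CPM with TNF and liproxstatin-1, 767, 758 and 748 CPM with TNF and ferrostatin-1, and 1097 and 932 CPM with TNF. It had 485 and 489.5 CPM with liproxstatin-1, 574 and 573 CPM with ferrostatin-1, and 495, 578 and 502 CPM in controls. The TNF libraries stood highest, those with TNF and a compound came next, and no library without TNF reached them. CALR rose with TNF in all 3 settings: by 0.95 ± 0.09 against control (1.93-fold; adjusted p = 3.3e-05), by 0.40 ± 0.09 among ferrostatin-1-treated cells (adjusted p = 0.00997) and by 0.59 ± 0.10 among liproxstatin-1-treated cells (adjusted p = 0.00262). The middle call was lost without either ferrostatin-1 library, with the difference at 0.40 each time. The call against control held under every alternative and with any 1 library left out (0.83 to 1.06).

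CANX (chr5:179678628-179730925, plus strand) had 748 and 767 CPM with TNF and liproxstatin-1, 800.0, 849 and 814 CPM with TNF and ferrostatin-1, and 535 and 829.9 CPM with TNF. It had 866 and 893 CPM with liproxstatin-1, 1086 and 1052 CPM with ferrostatin-1, and 808, 747 and 900.2 CPM in controls. TNF library 1 was lowest and the ferrostatin-1 libraries highest, and TNF library 3 lay among the controls. No TNF difference of CANX was called: -0.26 ± 0.14 against control (adjusted p = 0.245), -0.38 ± 0.14 among ferrostatin-1-treated cells (adjusted p = 0.0862) and -0.21 ± 0.16 among liproxstatin-1-treated cells (adjusted p = 0.426). Against control it was -0.61 without TNF library 3 (adjusted p = 0.000429) and 0.02 without TNF library 1 (adjusted p = 0.948). In the reported fits CALR was thus called higher in all 3 settings, and CANX was called in none. The lectins were not tested against each other.

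XBP1 (chr22:28794555-28800597, minus strand), the transcription factor whose mRNA carries the segment shown above, had 226 and 214 CPM with TNF and liproxstatin-1, 263, 309 and 267 CPM with TNF and ferrostatin-1, and 446 and 299 CPM with TNF. It had 507 and 523 CPM with liproxstatin-1, 552 and 505 CPM with ferrostatin-1, and 449, 343 and 474 CPM in controls. All 5 libraries with TNF and a compound were below every control and every library with a compound alone. XBP1 fell by 1.23 ± 0.18 with TNF among liproxstatin-1-treated cells (adjusted p = 0.00129) and by 0.92 ± 0.16 among ferrostatin-1-treated cells (adjusted p = 0.00238). Both calls held under every alternative and with any 1 library left out. Without a compound the TNF difference was -0.18 ± 0.17 (adjusted p = 0.510), and its sign depended on the library: -0.50 without TNF library 1 and 0.08 without TNF library 3, neither of them called.

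HERPUD1 (chr16:56932142-56944864, plus strand), a membrane protein of the machinery that exports misfolded protein for degradation, had 43.8 and 38.6 CPM with TNF and liproxstatin-1, 45.8, 52.8 and 49 CPM with TNF and ferrostatin-1, and 81.3 and 57.2 CPM with TNF. It had 95.3 and 97.7 CPM with liproxstatin-1, 102 and 103 CPM with ferrostatin-1, and 81.8, 64.4 and 81.3 CPM in controls. The 5 libraries with TNF and a compound were the lowest of the study, and TNF library 3 was the next. HERPUD1 fell by 1.23 ± 0.17 with TNF among liproxstatin-1-treated cells (0.427-fold; adjusted p = 0.000708) and by 1.06 ± 0.15 among ferrostatin-1-treated cells (0.481-fold; adjusted p = 0.000533). Both calls held under every alternative and with any 1 library left out. Against control the TNF difference was -0.13 ± 0.15 (adjusted p = 0.613), with -0.41 without TNF library 1 and 0.10 without TNF library 3.

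**Figure D2:**
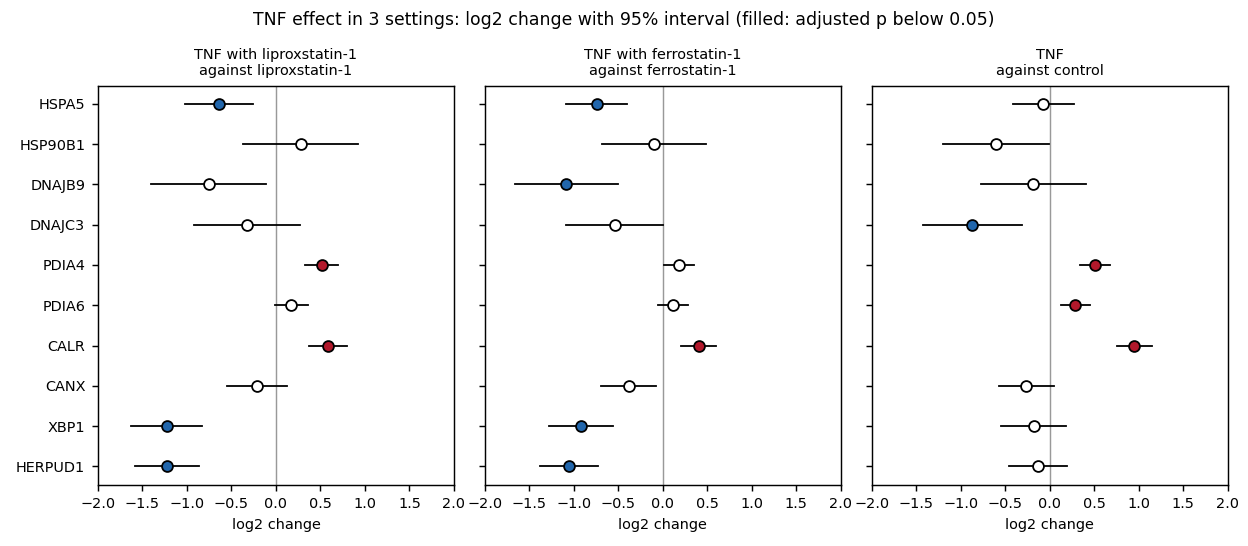
Log2 change with TNF for each gene (horizontal axis, points with 95% intervals, filled where the adjusted p is below 0.05), in 3 panels: among liproxstatin-1-treated cells, among ferrostatin-1-treated cells and in cells without a compound. XBP1 and HERPUD1 sit at -1.23 with liproxstatin-1 and near -1 with ferrostatin-1, but close to 0 without a compound, and CALR lies right of 0 in all 3 panels.

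Counted over the 10 genes, TNF against control called 4 of 10, with 3 higher (CALR, PDIA4, PDIA6) and 1 lower (DNAJC3). Of all genes tested 14.7% were called, 8.24% higher and 6.44% lower. With only the TNF and control libraries in the fit, CALR alone was called, beside 1.79% of all genes; with no filter on low counts, DNAJC3 and PDIA6 were not called, and 7.02% of all genes were. Among ferrostatin-1-treated cells 5 of 10 were called, with 1 higher (CALR) and 4 lower (HERPUD1, XBP1, HSPA5, DNAJB9), where 18.1% of all genes were called, 8.76% higher and 9.36% lower. Among liproxstatin-1-treated cells 5 of 10 were called, with 2 higher (CALR, PDIA4) and 3 lower (HERPUD1, XBP1, HSPA5), where 14.6% of all genes were called, 7.57% higher and 7.03% lower. The median log2 change of the 10 genes was -0.16 without a compound, -0.46 with ferrostatin-1 and -0.27 with liproxstatin-1. Over all genes tested it was -0.02, 0.02 and 0.06 in the same settings. These 3 comparisons share no library. The 10 genes were chosen with earlier results of these data known, so their counts are only a description.

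Whether the TNF difference itself depended on a compound was tested as an interaction, that is, as the TNF difference with the compound minus the TNF difference without it. No member was called for ferrostatin-1, where 0.00451% of all genes (1 gene) were called, nor for liproxstatin-1, where 0% were called (edgeR's quasi-likelihood test). At an unadjusted p below 0.05 there were 6 of 10 members for ferrostatin-1 (19.1% of all genes) and 5 of 10 for liproxstatin-1 (19.5% of all genes). DESeq2 called 2 of the 10 for each compound, beside 9.23% of all genes with an adjusted p for ferrostatin-1 and 9.31% for liproxstatin-1, and limma voom called 0 of the 10, beside 0.0541% and 0.933%. The estimates that came nearest were those of HERPUD1, at -1.10 ± 0.22 for liproxstatin-1 (adjusted p = 0.103) and -0.93 ± 0.21 for ferrostatin-1 (adjusted p = 0.0947). XBP1 had -1.05 ± 0.24 (adjusted p = 0.121) and -0.74 ± 0.23 (adjusted p = 0.149) for the same compounds. CALR had -0.37 ± 0.13 (adjusted p = 0.185) and -0.55 ± 0.13 (adjusted p = 0.0971). Both interactions share the TNF and control libraries, and without TNF library 3 each called 6 of the 10, beside 28.2% of all genes for liproxstatin-1 and 28.1% for ferrostatin-1. Without TNF library 1 the interaction with liproxstatin-1 called HERPUD1 alone (-0.82; adjusted p = 0.0469, edgeR's test), beside 1.08% of all genes, and the interaction with ferrostatin-1 called 0 of the 10, beside 0.996%. The difference between the interactions was called for 0 of 10 members, as for 0% of all genes, with 1 member at an unadjusted p below 0.05 (3.96% of all genes) and 0 members by DESeq2 (0.0857% of all genes with an adjusted p) or limma voom (0.0361%).

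Each compound alone was compared with control, in cells that were not given TNF. With ferrostatin-1 all 10 estimates were positive, from 0.01 for PDIA6 to 0.96 for DNAJB9, and 0 of 10 were called, where 0.564% of all genes were called. At an unadjusted p below 0.05 there were 4 of 10 (12.3% of all genes). HSPA5 had a difference of 0.73 ± 0.16 (95% interval 0.39 to 1.08; adjusted p = 0.0642) and DNAJB9 of 0.96 ± 0.27 (0.38 to 1.54; adjusted p = 0.145). DESeq2 called both of them and no other member, beside 4.81% of all genes with an adjusted p, and limma voom with quality weights called 8 of 10, beside 7.23% of all genes. By edgeR's test HSPA5 was also called without control 2 (0.55) or control 3 (0.92), and DNAJB9 without control 3 (1.26; adjusted p = 0.0380). With liproxstatin-1 6 of 10 estimates were positive and 0 of 10 were called, where 0.0586% of all genes were called. At an unadjusted p below 0.05 there were 3 of 10 (12% of all genes), DESeq2 called 0 (2.45% of all genes with an adjusted p), and limma voom called HSPA5 alone (6.6% of all genes). HSPA5 had a difference of 0.44 ± 0.16 (0.09 to 0.78; adjusted p = 0.304). The comparisons with ferrostatin-1 and liproxstatin-1 share the 3 control libraries, of which control 2 held the lowest level of HSPA5, HSP90B1, DNAJB9, DNAJC3, CANX, XBP1 and HERPUD1.

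The compounds were also set against each other at the same dose and time. Without TNF all 10 estimates of liproxstatin-1 against ferrostatin-1 were negative, with a median log2 difference of -0.27 beside -0.01 over all genes tested, and 0 of 10 were called, where 0.104% of all genes were called. At an unadjusted p below 0.05 there were 2 of 10 (6.51% of all genes), DESeq2 called 1 (PDIA4), beside 1.08% of all genes with an adjusted p, and limma voom 2 (PDIA4 and HSP90B1), beside 1.36%. PDIA4 had -0.34 ± 0.08 (95% interval -0.52 to -0.16; adjusted p = 0.226). For the other genes the interval reached as far as -0.68 for HSPA5, -1.19 for HSP90B1 and -1.15 for DNAJB9, so differences of that size are within what these libraries allow. XBP1 had -0.04 ± 0.18 (-0.43 to 0.36), and its libraries overlapped.

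With TNF present all 10 estimates of liproxstatin-1 against ferrostatin-1 were again negative, with a median of -0.14 beside 0.00 over all genes. None of the 10 was called, where 0.766% of all genes were called, and none had an unadjusted p below 0.05 (8.6% of all genes) or was called by DESeq2 (2.18%) or limma voom (3.67%). XBP1 had -0.35 ± 0.17 (95% interval -0.71 to 0.02; adjusted p = 0.618) and HERPUD1 -0.26 ± 0.15 (-0.58 to 0.07; adjusted p = 0.746). In both genes the pair of libraries with TNF and liproxstatin-1 lay below the 3 libraries with TNF and ferrostatin-1. PDIA4 had -0.01 ± 0.08 (-0.18 to 0.16), the narrowest bound around 0 among the 10.

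Adding a compound to TNF was compared with TNF alone. With ferrostatin-1 1 of 10 was called, CALR, which fell by 0.42 ± 0.09 (adjusted p = 0.0293), where 5.52% of all genes were called and 3.75% were called lower. This call was lost with several alternatives: with KRT81 as a covariate (-0.39), without TNF library 1 (-0.30), and without any 1 library of TNF with ferrostatin-1 (-0.43 to -0.41). KRT81 itself differs between these groups, so the fit with it cannot separate its level from the compound. HSP90B1 had a difference of 0.92 ± 0.28 (adjusted p = 0.0676) and HERPUD1 of -0.49 ± 0.15 (adjusted p = 0.0673), neither of them called. With liproxstatin-1 0 of 10 were called by edgeR's test, where 0.343% of all genes were called. At an unadjusted p below 0.05 there were 7 of 10 (23.1% of all genes), DESeq2 called 4, beside 18.1% of all genes with an adjusted p, and limma voom 0, beside 0.555%. CALR had -0.47 ± 0.10 (adjusted p = 0.0616), HERPUD1 -0.75 ± 0.16 (adjusted p = 0.0658) and XBP1 -0.76 ± 0.18 (adjusted p = 0.0754). Both comparisons share the TNF libraries. Without TNF library 3 they called 7 of 10 for liproxstatin-1 and 6 of 10 for ferrostatin-1, beside 31.1% and 33.7% of all genes; without TNF library 1 they called 0 of 10 for either compound, beside 1.64% and 2.78% of all genes.

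**Figure D3:**
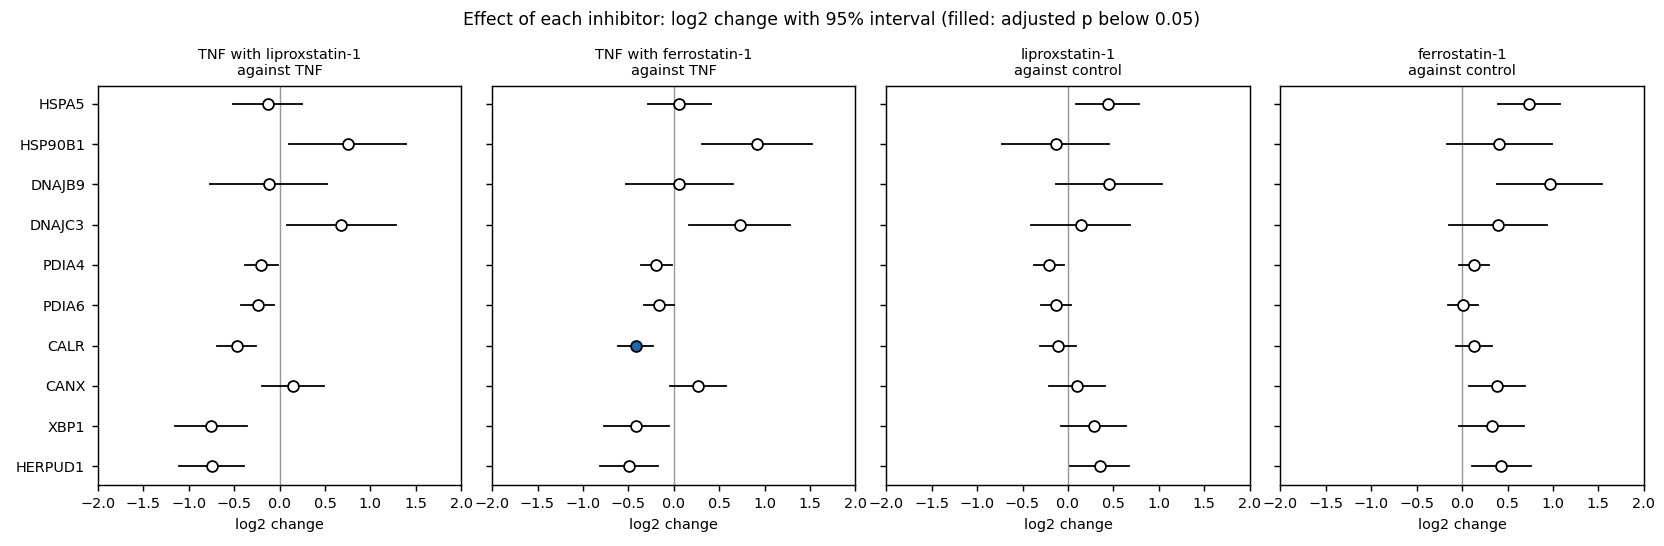
Log2 change with each compound (horizontal axis, points with 95% intervals, filled where the adjusted p is below 0.05), with TNF in the 2 left panels and without TNF in the 2 right panels. CALR with ferrostatin-1 and TNF, at -0.42, is the filled point, and HSPA5 without TNF lies at 0.44 with liproxstatin-1 and 0.73 with ferrostatin-1.

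The split between the TNF libraries divided the 10 genes. TNF library 1 held less than library 3 of HSP90B1, DNAJC3, CANX, DNAJB9 and HSPA5, by ratios of 0.380, 0.435, 0.645, 0.730 and 0.959. It held more of XBP1, HERPUD1, CALR, PDIA6 and PDIA4, by ratios of 1.49, 1.42, 1.18, 1.06 and 1.06. With TNF library 3 left out 6 of the 10 were called in TNF against control, beside 33.8% of all genes, and with TNF library 1 left out 2 of 10 were called (CALR and PDIA4), beside 10.2%. The lone TNF library is then taken to vary like the libraries of the other groups.

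**Figure D4:**
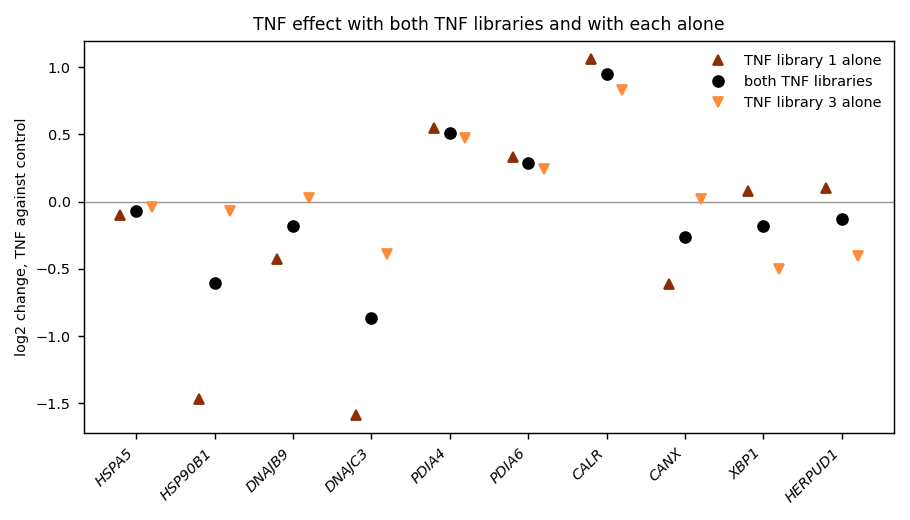
Log2 change in TNF against control (vertical axis) for the 10 genes (horizontal axis), with both TNF libraries (circles), with TNF library 1 alone (upward triangles) and with TNF library 3 alone (downward triangles). The triangles lie far apart for HSP90B1 (-1.47 and -0.07) and DNAJC3 (-1.59 and -0.39) and close together for PDIA4 (0.55 and 0.47).

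Genes that work with these 10 were taken from lists and counted by direction in the same tests. These lists, like the 10 genes, were chosen with earlier results of these data known. Their shares are therefore only a description. Over all genes tested, 14.6% were called with TNF among liproxstatin-1-treated cells, 18.1% among ferrostatin-1-treated cells and 14.7% against control, and the share of each list that was called is given in that order. Among 20 ER folding partners, 1 rose and 2 fell with TNF among liproxstatin-1-treated cells, 1 rose and 5 fell among ferrostatin-1-treated cells, and 3 rose and 3 fell against control (15%, 30% and 30% of the list). AGR2, the disulfide isomerase that mucin folding needs, fell in all 3 settings, by 0.89 with liproxstatin-1, 1.62 with ferrostatin-1 and 1.43 against control (adjusted p = 0.00381, 2.6e-05 and 9.9e-05). HYOU1, the exchange factor for HSPA5, fell by 0.87 with TNF among liproxstatin-1-treated cells (adjusted p = 0.0150, a call lost without any 1 of the 4 libraries) and by 1.03 among ferrostatin-1-treated cells (adjusted p = 0.00256). PDIA3, the oxidoreductase that binds calreticulin and calnexin, rose by 0.35 with TNF against control (adjusted p = 0.00789).

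Of 10 stress sensors and their proteases, 0 rose and 4 fell with TNF among liproxstatin-1-treated cells, 1 rose and 5 fell among ferrostatin-1-treated cells, and 1 rose and 4 fell against control (40%, 60% and 50% of the list). ERN2, the gut form of the XBP1 splicing enzyme IRE1, fell by 1.56 with liproxstatin-1, 1.9 with ferrostatin-1 and 0.75 against control (adjusted p = 0.000337, 2.0e-05 and 0.0131). CREB3L1, an ER-bound transcription factor, fell by 1.05, 1.42 and 1.01 in the same settings (adjusted p = 0.000576, 1.8e-05 and 0.000297). ERN1, the ubiquitous IRE1, fell by 1.19 with TNF among liproxstatin-1-treated cells (adjusted p = 0.0190), a call lost without any 1 of the 4 libraries. EIF2AK3, which encodes PERK, fell by 1.03 with TNF against control (adjusted p = 0.0197), at 8.71 and 17.4 CPM in TNF cells and 24.8, 23.9 and 31.2 CPM in control cells. The EIF2AK3 difference was -1.61 without TNF library 3 (adjusted p = 9.4e-05), and its call was lost without TNF library 1 (-0.61; adjusted p = 0.0803) and without control 3 (-0.90).

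The PERK and ATF4 list holds the factor ATF4 and genes it drives. All 11 of its genes fell with TNF among liproxstatin-1-treated cells and all 11 among ferrostatin-1-treated cells, with median log2 changes of -2.20 and -2.17, and 1 of 11 fell in TNF against control (XPOT, by 1.01; median of the list -0.52). The shares called were 100%, 100% and 9.09% of the list. Under the compounds all 11 were called with any 1 library left out, whereas in TNF against control 9 of 11 were called lower without control 2, beside 15.3% of all genes, and 6 of 11 without TNF library 1, beside 10.2%. In the test of the difference itself, 0 of 11 were called in either interaction by edgeR's test, with medians of -1.86 for liproxstatin-1 and -1.70 for ferrostatin-1. All but 1 of them, 10 of 11, had an unadjusted p below 0.05 in each interaction, beside 19.5% and 19.1% of all genes. For liproxstatin-1 DESeq2 called 10 of 11 and limma voom 4, beside 9.31% and 0.933% of all genes. For ferrostatin-1 DESeq2 called 8 and limma voom 0, beside 9.23% and 0.0541%. Without TNF library 3 both interactions called 10 of 11 lower, beside 28.2% and 28.1% of all genes. Without TNF library 1 the interaction called 4 of 11 for liproxstatin-1 and 3 of 11 for ferrostatin-1, and without control 2 it called 4 of 11 for each. Of all genes, 0.0812% for liproxstatin-1 and 0.171% for ferrostatin-1 were called without control 2. The shares of all genes without TNF library 1 are given with the interactions above. Against TNF alone, 3 of 11 were lower with TNF and liproxstatin-1 (median -1.26), where 0.343% of all genes were called, and 6 of 11 with TNF and ferrostatin-1 (median -1.14), where 5.52% were. With any 1 library left out these counts ran from 0 to 9 lower for liproxstatin-1 and from 1 to 9 lower for ferrostatin-1. In these fits the share of all genes called moved too, and it was highest without TNF library 3 for both compounds. ATF4 itself had 270.3 and 237 CPM with TNF and liproxstatin-1, 317, 365 and 319 CPM with TNF and ferrostatin-1, and 916 and 552 CPM with TNF. It had 858 and 916 CPM with liproxstatin-1, 888 and 841 CPM with ferrostatin-1, and 839.8, 636 and 823 CPM in controls. The libraries with TNF and a compound were the lowest, as they were for HERPUD1, while for XBP1 TNF library 3 lay below 1 of them. TNF library 3 lay below TNF library 1 in all 3 genes. DDIT3 (CHOP), the death-associated factor of this arm, fell by 2.82 with TNF among liproxstatin-1-treated cells (adjusted p = 0.000257) and fell by 2.53 among ferrostatin-1-treated cells (adjusted p = 9.8e-05).

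The next lists cover quality control and entry into the ER. Of 18 genes of ER-associated degradation, 0 rose and 2 fell with TNF among liproxstatin-1-treated cells (SELENOS by 0.71 and UBE2J1 by 0.49), and 2 rose and 2 fell among ferrostatin-1-treated cells. The calls of SELENOS and UBE2J1 with liproxstatin-1 were lost without any 1 of the 4 libraries. Against control 2 of the list rose (VCP, by 0.34 ± 0.08, and NPLOC4, by 0.38 ± 0.09) and SEL1L fell by 1.07 ± 0.33 (adjusted p = 0.0474). The shares called were 11.1%, 22.2% and 16.7% of the list. SEL1L is the partner of the ligase that HERPUD1 serves, and it had 19.7 and 54.9 CPM in TNF cells and 79.1, 58.5 and 98.0 CPM in control cells. Its difference was -1.99 without TNF library 3 (adjusted p = 2.4e-05), and the call was lost without TNF library 1 (-0.52; adjusted p = 0.153), control 1 (-1.07) or control 3 (-0.88). NPLOC4 lost its call without TNF library 1 (0.27) or control 1 (0.38). Of 17 translocation genes, 0 rose and 2 fell with TNF among liproxstatin-1-treated cells, 0 rose and 3 fell among ferrostatin-1-treated cells, and 0 rose and 2 fell against control (11.8%, 17.6% and 11.8% of the list). SEC61A1, the channel itself, fell by 0.50 and 0.73 in the settings with liproxstatin-1 and ferrostatin-1 (adjusted p = 0.0438 and 0.00313); the call with liproxstatin-1 was lost without any 1 of the 4 libraries. Of 14 genes of the calnexin cycle and N-glycosylation, 1 rose (MLEC, by 0.31) with TNF among liproxstatin-1-treated cells, 1 fell (STT3A, by 0.34) among ferrostatin-1-treated cells, and 1 fell (UGGT1, by 0.88) against control, or 7.14% of the list each time. The MLEC call was lost without any 1 of its 4 libraries, the STT3A call without either ferrostatin-1 library, and the UGGT1 call without control 1 or control 3; UGGT1 was -0.43 without TNF library 1 and -1.56 without TNF library 3. The shares of the translocation list lay near those over all genes, and those of the calnexin cycle list rest on 1 gene in each setting. Neither is read as a difference from all genes.

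Chaperones outside the ER lumen, and the complex that calreticulin joins, were read beside them. Of 12 cytosolic and mitochondrial heat shock genes, 5 rose and 1 fell with TNF among liproxstatin-1-treated cells, 5 rose and 1 fell among ferrostatin-1-treated cells, and 5 rose and 2 fell against control (50%, 50% and 58.3% of the list). HSPA1A, the inducible cytosolic Hsp70, rose by 0.60 with liproxstatin-1, 0.64 with ferrostatin-1 and 0.39 against control (adjusted p = 0.00150, 0.000398 and 0.00982), and HSPA9, the mitochondrial Hsp70, fell by 0.99, 0.96 and 0.96 in the same settings (adjusted p = 0.00794, 0.00366 and 0.00679). The HSPA9 call with liproxstatin-1 was lost without library 2 of TNF with liproxstatin-1 (-0.96). The 7 genes of MHC class I and its peptide loading rose with TNF in 6 cases with liproxstatin-1, 6 with ferrostatin-1 and 7 against control, and none fell (85.7%, 85.7% and 100% of the list). TAP1, the peptide transporter, had 297 and 302 CPM with TNF and liproxstatin-1, 281, 275 and 272 CPM with TNF and ferrostatin-1, and 490.2 and 325 CPM with TNF. It had 100.2 and 94.9 CPM with liproxstatin-1, 64.9 and 80.4 CPM with ferrostatin-1, and 65.2, 60.8 and 74.5 CPM in controls. As with CALR, every library with TNF lay above every library without it and the TNF libraries stood highest. For a compound alone against control, and for liproxstatin-1 against ferrostatin-1 without TNF, 0 of the 109 genes of these 8 lists were called by edgeR's test. Of all genes, that test called 0.564% for ferrostatin-1, 0.0586% for liproxstatin-1 and 0.104% for liproxstatin-1 against ferrostatin-1. For ferrostatin-1 28 of the 109 had an unadjusted p below 0.05, DESeq2 called 7 and limma voom 24. Of all genes the shares were 12.3%, 4.81% and 7.23% (for DESeq2, of those with an adjusted p). For liproxstatin-1 the numbers were 17, 2 and 18, beside 12%, 2.45% and 6.6% of all genes. For liproxstatin-1 against ferrostatin-1 they were 10, 3 and 4, beside 6.51%, 1.08% and 1.36%.

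**Figure D5:**
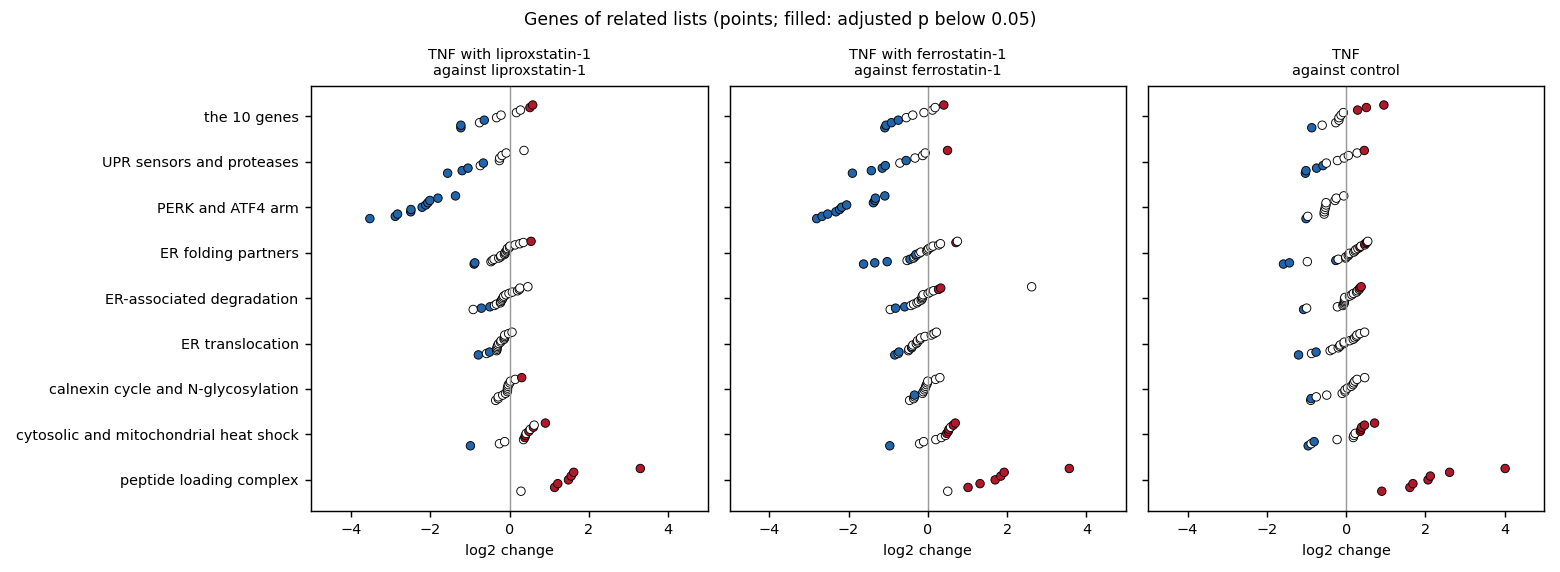
Log2 change with TNF (horizontal axis) of the 10 genes and of 8 related lists (rows; each point is a gene, filled where the adjusted p is below 0.05, red higher and blue lower), in 3 panels: among liproxstatin-1-treated cells, among ferrostatin-1-treated cells and in cells without a compound. All 11 genes of the PERK and ATF4 list are filled left of 0 in the panels with a compound, and the peptide loading list lies right of 0 throughout.

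The genes most like HSPA5 and XBP1 were found by Pearson's r of log2 CPM over the 14 libraries, among 11412 genes with a mean of at least 5 CPM; these libraries share their groups, so r is a description. For HSPA5 they were SEC23B (r = 0.975), DNAJB9 (0.973), ITPKA (0.963), FAM241A (0.953) and KLHL29 (0.951). For XBP1 they were YARS1 (0.994), CARS1 (0.992), ZFAND2A (0.992), HERPUD1 (0.991) and SHMT2 (0.991). Among the 10 genes, the closest pairs after XBP1 with HERPUD1 and HSPA5 with DNAJB9 were PDIA4 with CALR (r = 0.954), DNAJC3 with CANX (0.934) and PDIA6 with CALR (0.915). The most opposed pair was DNAJC3 with CALR (r = -0.781).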

How the data were processed

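Per the labels' protocols, stranded libraries were made from poly(A) RNA. The deposited table holds raw counts per gene, and beside them FPKM values made by the authors. The submitters' processing notes name cutadapt 1.9, HISAT2 2.0.4, StringTie 1.3.4d and, without versions, DESeq2 and edgeR; they state no role. Build, annotation, counting program and strand handling were not given in the sources used here. Starts and ends of 4 of the 10 genes equal those of GENCODE v29. For the groups with ferrostatin-1 alone, liproxstatin-1 alone and TNF alone, columns carry the numbers 1 and 3 and sample titles the numbers 1 and 2, so their columns were assigned by group only.

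Counts were tested with edgeR 4.0.16 in R 4.3.3: TMM scaling, filterByExpr, 1 quasi-likelihood model of 6 groups and 14 libraries, 12 contrasts, Benjamini-Hochberg adjustment over 22179 genes, threshold 0.05. All groups entered 1 fit because 4 of them hold 2 libraries. Intervals are 95%, and SE is the log2 change divided by the square root of F. FPKM was used only to compare levels between genes, over the 8 libraries with a matched column; the 6 FPKM columns assigned to a group only were not used, a change from the planned use of all libraries. The test was run on simulated data with known changes placed in the TNF group. Those data gave all groups the same spread, so they lack the wide difference between the real TNF libraries and cannot speak to it. Alternatives were other scaling and filters, DESeq2 1.42.0, limma 3.58.1 voom with quality weights, only the groups compared, a replicate block, KRT81 as a covariate and each library left out. The named genes were all 10, up to 4 called genes with the smallest adjusted p per list, the 5 genes most like HSPA5 and XBP1, and KRT81; the text prints part of them, and ATF4, SEL1L and TAP1 levels were added after their values were seen. The members and lists were chosen with earlier results of these data known. Replicate numbers were not taken to pair libraries: 1 of 28 same-numbered pairs had a correlation of deviations above 0.1. These pairs are not all separate checks, because deviations within a group of 2 libraries mirror each other.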

Additional observations from a re-analysis of the deposited data

How the results depend on the processing

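Each gene's 12 contrasts were recomputed under 8 other settings. Of 960 such values 905 kept their side of the threshold, 14 lost the call, 41 gained one and 0 reversed. With 1 library left out the numbers were 652, 18, 30 and 0 of 700. Direction was compared only where the reported fit or the alternative called the gene. Values called in neither fit count as kept whatever their sign. Some of these changed sign, such as HSPA5 in TNF against control (-0.27 to 0.12 over the alternatives). The counts of the 10 genes called that moved by over 1.5 times were these, each with the share of all genes called in the same fit (for DESeq2, of the genes with an adjusted p). In TNF against control, reported as 4 (14.7%), there were 2 with no filter (7.02%) and 1 with only the groups compared (1.79%). In ferrostatin-1 against control, reported as 0 (0.564%), there were 1 with a stricter filter (1.37%), 2 by DESeq2 (4.81%) and 8 by limma voom (7.23%). In liproxstatin-1 against control, reported as 0 (0.0586%), there was 1 by limma voom (6.6%). In TNF with ferrostatin-1 against TNF, reported as 1 (5.52%), there were 4 by DESeq2 (27.3%) and 0 with no filter (1.51%), by limma voom (0.0631%), with only the groups compared (0.0676%), with KRT81 as a covariate (0.162%) and with the replicate block (1.33%). In TNF with liproxstatin-1 against TNF, reported as 0 (0.343%), there were 4 by DESeq2 (18.1%). In liproxstatin-1 against ferrostatin-1, reported as 0 (0.104%), there were 1 by DESeq2 (1.08%), 2 by limma voom (1.36%) and 1 with only the groups compared (0.352%). In TNF with ferrostatin-1 against ferrostatin-1, reported as 5 (18.1%), there were 8 by limma voom (32.6%) and 8 with only the groups compared (30.7%). In TNF with liproxstatin-1 against liproxstatin-1, reported as 5 (14.6%), there were 9 by limma voom (30.9%) and 9 with only the groups compared (25.7%). The interactions, reported as 0, had 2 each by DESeq2, beside 9.23% for ferrostatin-1 and 9.31% for liproxstatin-1. The settings thus differ in how many genes they call at all. The cause was not tested.

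With 1 library left out, the counts ranged from 2 to 6 in TNF against control, 0 to 2 in ferrostatin-1 against control, 0 to 6 in TNF with ferrostatin-1 against TNF, 0 to 7 in TNF with liproxstatin-1 against TNF, 3 to 5 in TNF with ferrostatin-1 against ferrostatin-1, and 0 to 6 in both interactions. They stayed at 4 in TNF with liproxstatin-1 against liproxstatin-1 and at 0 in the other comparisons. The highest counts in the comparisons that use the TNF libraries came without TNF library 3, where the share of all genes called was highest too. In ferrostatin-1 against control the highest count came without control 3, where 1.32% of all genes were called, the highest share of those fits. The lowest count in TNF with ferrostatin-1 against ferrostatin-1 came without ferrostatin-1 library 1, where the share was lowest too. In TNF with liproxstatin-1 against liproxstatin-1 the share was below the reported 14.6% in every such fit. With the replicate block, HSPA5 in TNF with liproxstatin-1 against liproxstatin-1 was -0.50 and not called (adjusted p = 0.120). The lowest count of any of the 10 genes in a library was 917, and each group holds 2 or 3 libraries. For the related lists, leaving out each library and the other tools were chosen after seeing the data. CPM per kilobase was not run, since no gene length was used here.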
